A study of Homo sapiens with 6 samples.

Results

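The genes described here are 43 chemokines, cytokines, their receptors and NF-kB feedback genes, chosen by symbol from the 60660 genes of the count files. They comprise the chemokines with the CXCL12 axis, interleukins, colony-stimulating factors, receptor chains and the feedback inhibitors TNFAIP3 and NFKBIA. RNA was sequenced from 12Z cells, an immortalized epithelial line derived from endometriosis lesions, 72 h after siRNA transfection. The control group was 3 libraries of cells given a single non-targeting siRNA, and the knockdown group was 3 libraries of cells given siRNA LINC01133a at 10 nM, which targets the long noncoding RNA LINC01133. The study calls the libraries of a group biological replicates. All cells were of the same line and were grown in complete medium, and the protocols name no added cytokine. Since the knockdown group received 1 siRNA sequence, the loss of LINC01133 and other effects of that oligo cannot be told apart in these libraries.

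Chemokines are small secreted proteins that guide leukocytes by binding receptors coupled to G proteins. CXC chemokines with the residues Glu-Leu-Arg before the first cysteines, called ELR chemokines, attract neutrophils and act on vessels through CXCR1 and CXCR2, whereas CXCL12 acts through CXCR4 and is also bound by the scavenger ACKR3. Interleukin 1 binds IL1R1, which then recruits the accessory chain IL1RAP and starts a cascade that releases NF-kB, and NF-kB in turn raises many chemokine genes and its own inhibitors. Cytokines of the interleukin 6 family share the receptor chain gp130, encoded by IL6ST, which pairs with IL6R, LIFR or OSMR and acts through JAK kinases and STAT3. Endometriosis lesions are known as inflamed tissue in which interleukins, CXCL8 and CCL2 are produced.

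The libraries held 27742562 to 37551194 counts on genes, and 15155 genes passed the filter on low counts. Values per library are normalized counts, that is counts scaled by the TMM method to a common library size, unless a value per kilobase is named. A gene was called differentially expressed (DE) when its fold change was over 1.5 in either direction and its adjusted p was under 0.05 in the quasi-likelihood test of edgeR, adjusted by Benjamini-Hochberg across every tested gene. A gene is said to rise or fall when the adjusted p alone was under 0.05. LINC01133 had 813, 818 and 837 normalized counts in control and 130, 131 and 138 in knockdown libraries. Of 10 epithelial markers, 9 passed the filter, and the keratin genes KRT8, KRT18 and KRT19 were the most abundant, but EPCAM had 9.33 to 22.0 normalized counts and all 10 stromal markers passed the filter too, among them COL1A1 and COL3A1. Of 16 leukocyte markers, 6 had no count in any library, and of the 2 tested, CD14 had 1595 to 1794 counts in control and 827 to 890 in knockdown libraries, while the pan-leukocyte gene PTPRC had 15.5 to 28.2. The summed level of the epithelial markers was 1570 to 1659 CPM (counts scaled to library size) per kilobase of exon in control and 994 to 1031 in knockdown libraries, that of stromal markers 1064 to 1154 and 1076 to 1089, that of leukocyte markers, nearly all from CD14, 30.2 to 33.9 and 15.8 to 16.9, and that of 8 endothelial markers 7.76 to 7.91 and 5.43 to 5.79. The stromal sum came mostly from COL1A1 and COL3A1. Of the 10 stromal markers 5 fell and 1 rose (50% and 10%, beside 25.0% and 23.3% of all genes). PDGFRA was DE and lower (log2 fold change -1.52) and MME was DE and higher (0.82). The endothelial sum was nearly all from KDR, which was DE and lower (-0.68). In contrast, CDH5 was DE and higher (1.45), and VWF did not pass the test. The part of these markers in the results was not tested, and in bulk RNA fewer cells of a type and less RNA per cell cannot be told apart.

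Of the 43 genes, 29 were abundant enough to test. In knockdown cells 11 of them were DE and all 11 were lower, at 26.4% to 64.7% of the control level: CXCL1, CXCL2, CXCL5, CXCL6, CXCL8, CXCL12, CCL7, IL1R1, IL6ST, LIFR and TNFAIP3. Over all genes tested, 11.7% were DE, 5.30% higher and 6.43% lower. Of all DE genes 45.2% were higher, and 55.9% with scaling by library size alone, under which every DE gene of the group was still lower. At an adjusted p under 0.05, 15 of the 29 fell and 3 rose, IL1RAP, IL13RA1 and IL18, against 48.3% of all genes in either direction, 25.0% lower and 23.3% higher. The counts of 20 of the 29 did not overlap between the groups, beside 57.3% of all genes. The median log2 fold change of the 29 was -0.34, and that of all genes tested 0.0032. CCL7 passed the filter only through its control libraries, where it was high, so its lower direction was favoured by the filter. Without CCL7, 10 of 28 genes were DE and all 10 were lower, 14 fell, 3 rose, 19 did not overlap and the median was -0.33. With each library left out in turn, 10 or 11 of the genes were DE, and 4 of the 11 (CXCL6, CXCL12, IL1R1 and LIFR) also passed glmTreat, the edgeR test of whether the fold change exceeds 1.5.

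**Figure D1:**
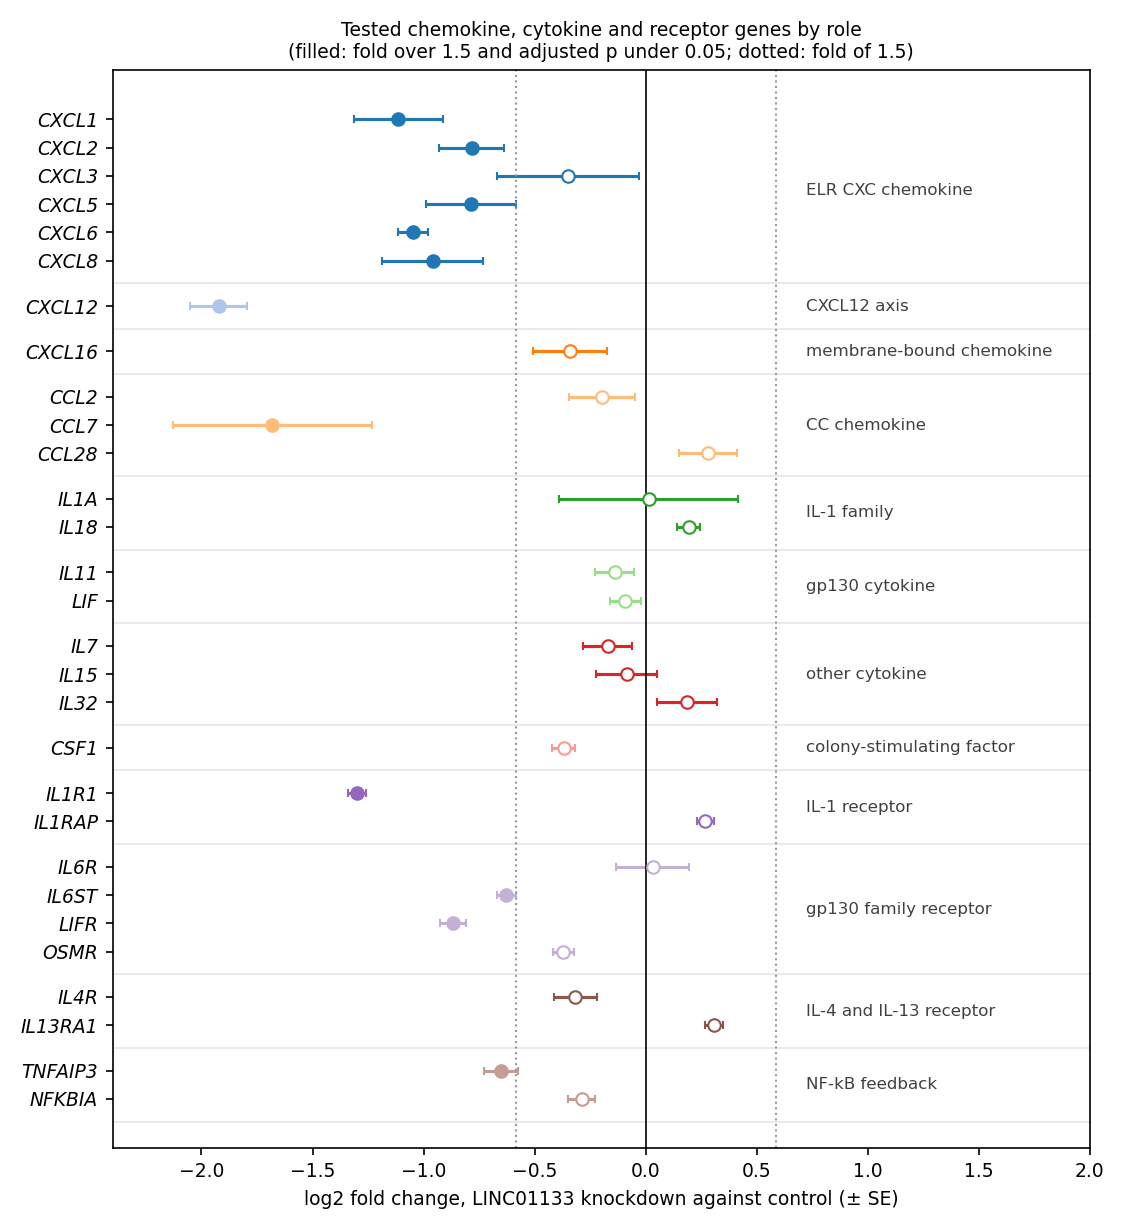
Log2 fold change of knockdown against control (x axis) for the 29 tested genes, grouped by role, with bars for the standard error derived from the edgeR F statistic. Filled points mark the 11 DE genes, all to the left of 0, and the dotted lines mark a fold change of 1.5.

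The other 14 genes were near or at the limit of detection, with at most 11 raw counts in any library. CCL20, a chemokine for CCR6, and IL1RN, the natural antagonist of interleukin 1, had 0 counts in all 6 libraries, which allows up to 3 counts of 194269637, or 0.0154 CPM. The inflammatory cytokine IL6 had 1, 0 and 1 raw counts in control and 0, 0 and 2 in knockdown libraries. Both receptors of CXCL12 were as scarce, since ACKR3 had 3 counts in knockdown replicate 2 and 0 elsewhere, and CXCR4 had 1 count in control replicate 3 and 1 in knockdown replicate 3. IL1B, the secreted form of interleukin 1, had 9, 3 and 10 raw counts in control and 8, 7 and 8 in knockdown libraries. CCL5, an attractant of T cells, had 3, 1 and 3 against 4, 11 and 1. The remaining genes without a test were CX3CL1, CCL26, IL33, TSLP, CSF2, CSF3 and IL13RA2, each with at most 7 counts in a library, and differences in these 14 genes were not detectable at this depth.

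Among the tested genes, receptor chains had the highest levels per length. In control cells IL6ST had 79.5 ± 4.97 CPM per kilobase of exon, OSMR 40.4 ± 2.93, IL1R1 34.8 ± 1.32, LIFR 20.4 ± 1.64 and IL13RA1 20.2 ± 0.986 (SD, n = 3 each). The control libraries of LIFR and IL13RA1 overlapped, whereas the other neighbours in this order did not. The highest ligand was CXCL6 at 15.9 ± 1.40 (SD, n = 3), whose libraries overlapped with those of IL1RAP at 14.9 ± 0.540. The next ligands were CSF1 at 12.2 ± 0.786 and IL18 at 11.9 ± 0.344, which overlapped with each other. In knockdown cells IL1R1 moved from rank 3 to rank 5 of the 29 genes and CXCL12 from rank 17 to rank 24, while IL1RAP moved from 7 to 4 and IL18 from 10 to 6.

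The ELR chemokines lie together on chromosome 4 and 5 of the 6 were DE and lower in knockdown cells, while CXCL3 did not pass the test. CXCL6, which acts on CXCR1 and CXCR2, was the most abundant of them and had 1036, 1154 and 971 normalized counts in control libraries and 504, 518 and 506 in knockdown libraries. The groups were far apart, and the knockdown libraries lay close to one another. Its log2 fold change was -1.05 ± 0.066 (SE, edgeR adjusted p = 4.8e-08). CXCL8, the prototype neutrophil attractant also called interleukin 8, had 147, 120 and 77.7 counts in control and 61.0, 44.7 and 73.7 in knockdown libraries. The lowest control and the highest knockdown library nearly met, and the log2 fold change was -0.96 ± 0.23 (SE, edgeR adjusted p = 0.0035). It ranged from -1.18 to -0.73 with each library left out in turn.

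CXCL1, CXCL2 and CXCL3 are close copies of one another that all signal through CXCR2. CXCL1 had 107, 128 and 78.8 normalized counts in control and 55.9, 37.9 and 49.9 in knockdown libraries, a log2 fold change of -1.11 ± 0.20 (SE, edgeR adjusted p = 0.00047). CXCL2 had 176, 170 and 155 against 94.9, 76.7 and 122, a log2 fold change of -0.78 ± 0.15 (SE, edgeR adjusted p = 0.00069). No knockdown library reached a control library for either gene. CXCL3 had 15.1, 15.8 and 11.4 in control and 8.48, 10.7 and 14.7 in knockdown libraries, which overlapped (log2 fold change -0.35 ± 0.32, SE, edgeR adjusted p = 0.39). Because reads that map to more than 1 place were dropped by the authors, reads in identical stretches of these genes may be missing. The longest identical run between their canonical transcripts was 97 bases, for CXCL2 and CXCL3, and the counts of the 3 genes together were 286 ± 35.9 in control against 157 ± 31.0 in knockdown libraries (SD, n = 3 each), 55.0% of the control level. CXCL5, also known for drawing neutrophils, had 69.1, 65.3 and 72.5 counts in control and 27.1, 49.5 and 45.4 in knockdown libraries, a log2 fold change of -0.79 ± 0.20 (SE, edgeR adjusted p = 0.0061). The lowest of these, knockdown replicate 1, carried the call of CXCL5, since without it the log2 fold change was -0.53 (adjusted p = 0.034), under the fold change cutoff.

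Per kilobase of exon, the 6 ELR chemokines together had 24.5 ± 2.37 CPM in control against 12.4 ± 0.744 in knockdown libraries (SD, n = 3 each). CXCL6 made up 65.3% ± 1.97 of this sum in control and 62.6% ± 4.38 in knockdown libraries (SD, n = 3 each), a difference smaller than the spread between libraries.

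**Figure D2:**
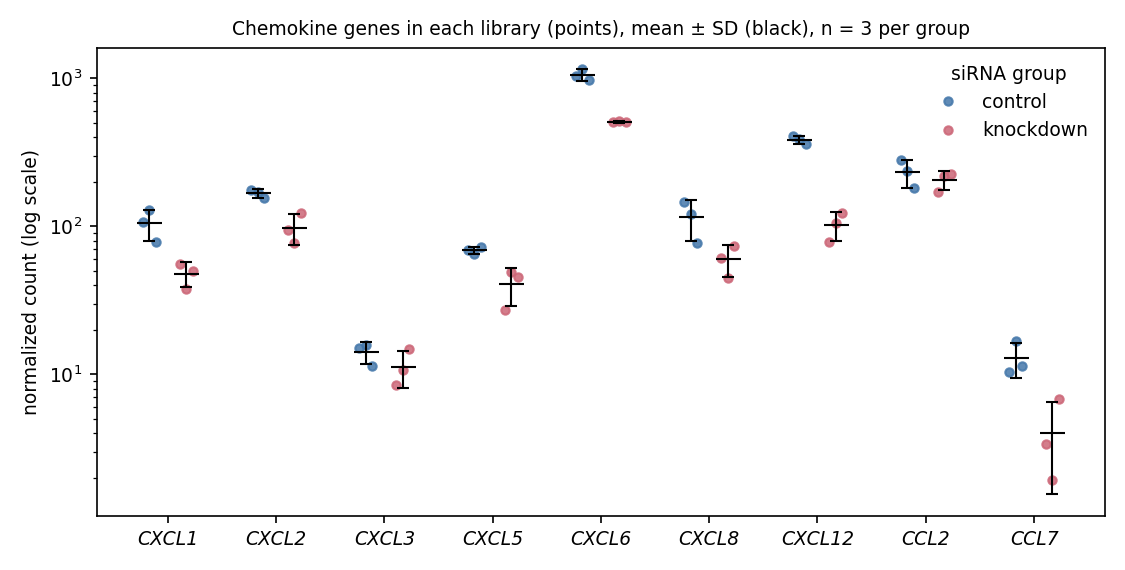
Normalized counts of 9 chemokine genes on a log scale, with a point for each library (control on the left and knockdown on the right of each gene) and the mean ± SD in black. The groups of CXCL6 and CXCL12 stand far apart, while those of CXCL3 and CCL2 overlap.

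The 6 ELR genes are the only tested protein-coding genes between CXCL8 (from 73740519) and CXCL2 (to 74099196) on chromosome 4 of GRCh38 in GENCODE v44. PF4V1, PF4 and PPBP, platelet chemokine genes inside this interval, had too few counts to test. The next gene beyond CXCL2, MTHFD2L, a mitochondrial folate enzyme, rose from 272 ± 8.32 to 331 ± 30.3 normalized counts (SD, n = 3 per group, log2 fold change 0.27, edgeR adjusted p = 0.018). RASSF6, before CXCL8, was not tested.

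The promoters of the ELR genes share a stretch of sequence. In RefSeq promoters of GRCh38.p14, from 250 bases before to 50 after the start of transcription, 5 of the 6 ELR genes held the 10-base NF-kB consensus, searched on both strands. Its letters were GGGRNWYYCC, where R is A or G, W is A or T, Y is C or T and N is any base. The 5 matches, read along the strand of each gene, begin between position -91 (CXCL5) and position -78 (CXCL2), and each is read on both strands with an offset of 1 base, so it was counted as 1 site. They are printed here with 10 flanking bases on each side and the 10 matching bases in capitals, because the same letters recur in all 5.
CXCL1: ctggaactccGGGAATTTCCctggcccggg
CXCL2: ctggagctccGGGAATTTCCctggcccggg
CXCL3: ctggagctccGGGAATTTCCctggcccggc
CXCL5: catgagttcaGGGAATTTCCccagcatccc
CXCL6: cctgagttcaGGGAATTTCCccagcatccc
The capitals are identical in the 5 genes, and CXCL3, which was not DE, carried them as well. The sites of CXCL1 and CXCL6 lie at chr4:73869314-73869323 and chr4:73836588-73836597 on the plus strand, and those of CXCL2, CXCL3 and CXCL5 at chr4:74099264-74099273, chr4:74038759-74038768 and chr4:73998759-73998768 on the minus strand. The 250 bases before the start of CXCL6, the most abundant ELR gene, at chr4:73836428-73836677 on the plus strand, are given to show where the site sits, with the overlapping matches of both strands in capitals.
CXCL6 upstream: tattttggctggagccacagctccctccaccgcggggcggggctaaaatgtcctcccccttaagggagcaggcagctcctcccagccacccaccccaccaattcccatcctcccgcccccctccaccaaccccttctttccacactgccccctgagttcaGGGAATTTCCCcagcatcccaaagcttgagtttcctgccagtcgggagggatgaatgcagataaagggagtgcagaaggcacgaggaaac
In CXCL5 and CXCL6 the site overlaps a match to the STAT motif TTCNNNGAA, which shares its GGGAA. The promoter of CXCL8 held no match to the NF-kB consensus in these letters and 1 to the AP-1 motif TGANTCA. It does hold tggaatttcc, which differs from the capitals printed above only in the first base. Promoters were found for 31 of the 43 genes, of which 12 held the NF-kB consensus, beside 5.91% of all 35116 RefSeq promoters and 9.02% of tested genes with a promoter. Of these 12, TNFAIP3 and NFKBIA were chosen as NF-kB feedback genes, so this share is not independent of the choice of genes. Another 5 are the neighbouring ELR genes printed above, which hold the same letters, so they do not count as separate occurrences. The AP-1 motif was found in 7 of the 31 and the STAT motif in 9, both read the same on either strand. These motifs were in 7.71% and 7.66% of all promoters, and in 6.98% and 8.4% of tested genes with a promoter. A gene was counted when any of its promoters held the motif. Of the 11 DE genes, 5 held the NF-kB consensus (CXCL1, CXCL2, CXCL5, CXCL6 and TNFAIP3), 5 the STAT motif (CCL7, CXCL5, CXCL6, IL1R1 and LIFR) and 2 the AP-1 motif (CCL7 and CXCL8). The STAT and AP-1 counts include CCL7, whose lower direction was favoured by the filter. Of the 22 tested genes of the group with a promoter, DE or not, 9 held the NF-kB consensus, 5 the STAT motif and 6 the AP-1 motif. These matches are a description of letters, and occupancy was not measured.

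CXCL12, the ligand of CXCR4, lies at chr10:44370165-44386493 on the minus strand and had the lowest log2 fold change of the 29 genes. Its normalized counts were 407, 386 and 359 in control libraries and 78.8, 106 and 124 in knockdown libraries. Every knockdown library lay under every control library by more than a factor of 2, and the log2 fold change was -1.92 ± 0.13 (SE, edgeR adjusted p = 7.8e-08), which is 26.4% of the control level. It ranged from -2.06 to -1.74 with each library left out in turn. Its receptors ACKR3 and CXCR4 had at most 3 raw counts in a library, as given above. CXCL16, a membrane-bound chemokine, had 105, 93.5 and 138 counts against 84.8, 77.7 and 106, and the groups overlapped (log2 fold change -0.34, edgeR adjusted p = 0.11).

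Of the 3 tested CC chemokines, CCL2 and CCL28 did not pass the test, and CCL7 is given as a description. CCL2, which attracts monocytes, had 280, 237 and 180 normalized counts in control and 170, 218 and 226 in knockdown libraries, and the groups overlapped (log2 fold change -0.20 ± 0.15, SE, edgeR adjusted p = 0.30). CCL7, a monocyte attractant whose gene lies next to CCL2 at chr17:34270221-34272242 on the plus strand, had 11, 15 and 11 raw counts in control and 4, 2 and 6 in knockdown libraries. The groups did not overlap, and the fitted log2 fold change was -1.68 ± 0.45 (SE), but CCL7 entered the test only because its control counts were high, and it was not tested when 10 counts were required in every library. The difference between CCL7 and CCL2 was not tested. CCL28, a mucosal chemokine, had 83.4 to 107 normalized counts in control and 110 to 124.8 in knockdown libraries, without overlap but with an adjusted p of 0.089 from edgeR (log2 fold change 0.28).

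Of the cytokine ligands outside the chemokines, CSF1 fell, IL18 rose and the others did not pass the test. CSF1, the growth factor of macrophages, had 2145, 2136 and 1910 normalized counts in control and 1546, 1591 and 1663 in knockdown libraries, a log2 fold change of -0.37 ± 0.051 (SE, edgeR adjusted p = 5.6e-05) without overlap. IL18, an inflammasome-activated cytokine of epithelia, had 993, 1041 and 989 against 1085, 1203 and 1171. All knockdown libraries of IL18 were above the control libraries by a small margin, with a log2 fold change of 0.19 ± 0.052 (SE, edgeR adjusted p = 0.0072). LIF, a gp130 cytokine known from embryo implantation, had 962, 766 and 885 counts in control and 818, 820 and 821 in knockdown libraries, and the knockdown values lay inside the control range (log2 fold change -0.09, edgeR adjusted p = 0.31). IL11, a gp130 cytokine active in decidualization, had 325, 302 and 275 against 285, 267 and 266 (log2 fold change -0.14, edgeR adjusted p = 0.20). IL1A, the cell-associated form of interleukin 1, had 5.63 to 15.1 normalized counts over the 6 libraries, with no direction that held across alternatives. IL7, IL15 and IL32 had group means of 189, 108 and 85.2 in control and 167, 101 and 97.6 in knockdown cells (edgeR adjusted p = 0.22, 0.63 and 0.28).

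The 2 chains of the interleukin 1 receptor moved in opposite directions. IL1R1, the chain that binds interleukin 1, had 8053, 8301 and 7696 normalized counts in control and 3190, 3220 and 3364 in knockdown libraries. The groups were separated by more than a factor of 2 with little spread in either, and the log2 fold change was -1.30 ± 0.041 (SE, edgeR adjusted p = 1.2e-10), or 40.6% of the control level. IL1RAP, the accessory chain, had 5189, 5490 and 5556 against 6487, 6660 and 6410, a log2 fold change of 0.27 ± 0.039 (SE, edgeR adjusted p = 7.5e-05). Per kilobase of exon, IL1R1 was 2.44, 2.38 and 2.18 times IL1RAP in control and 0.774, 0.761 and 0.826 times in knockdown libraries, so the order of the chains was inverted in every knockdown library. For this ratio the exact two-sided permutation test gave p = 0.10, the smallest that 3 against 3 libraries allow, also after adjustment over the 5 receptor ratios examined, each of which gave p = 0.10.

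IL1R1 is part of a cluster of receptor genes on chromosome 2 of GRCh38, at chr2:102064544-102179874 on the plus strand. IL1RL1, the receptor of interleukin 33, and IL18R1, the binding chain of the interleukin 18 receptor, lie beyond it and are not among the 43 genes, but were the cytokine receptor genes with the lowest log2 fold changes. IL1RL1 had 57.7, 54.1 and 46.6 normalized counts in control and 16.9, 23.3 and 15.9 in knockdown libraries, a log2 fold change of -1.49 (edgeR adjusted p = 7.9e-05). IL18R1 had 143, 149 and 153 against 49.2, 68.0 and 53.3, a log2 fold change of -1.39 (edgeR adjusted p = 3.6e-06). These genes overlap on the same strand in GENCODE v44, so reads in the shared part cannot be assigned to one of them. IL1RL2, between IL1R1 and IL1RL1, had 13.1 ± 6.84 and 10.5 ± 1.94 counts (SD, n = 3 each, edgeR adjusted p = 0.63), IL1R2 and IL18RAP at the ends of the cluster were too low to test, and MAP4K4, the neighbour before the cluster, had 0.07 on the log2 scale (edgeR adjusted p = 0.16). IL18 and its binding chain IL18R1 thus changed in opposite directions.

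**Figure D3:**
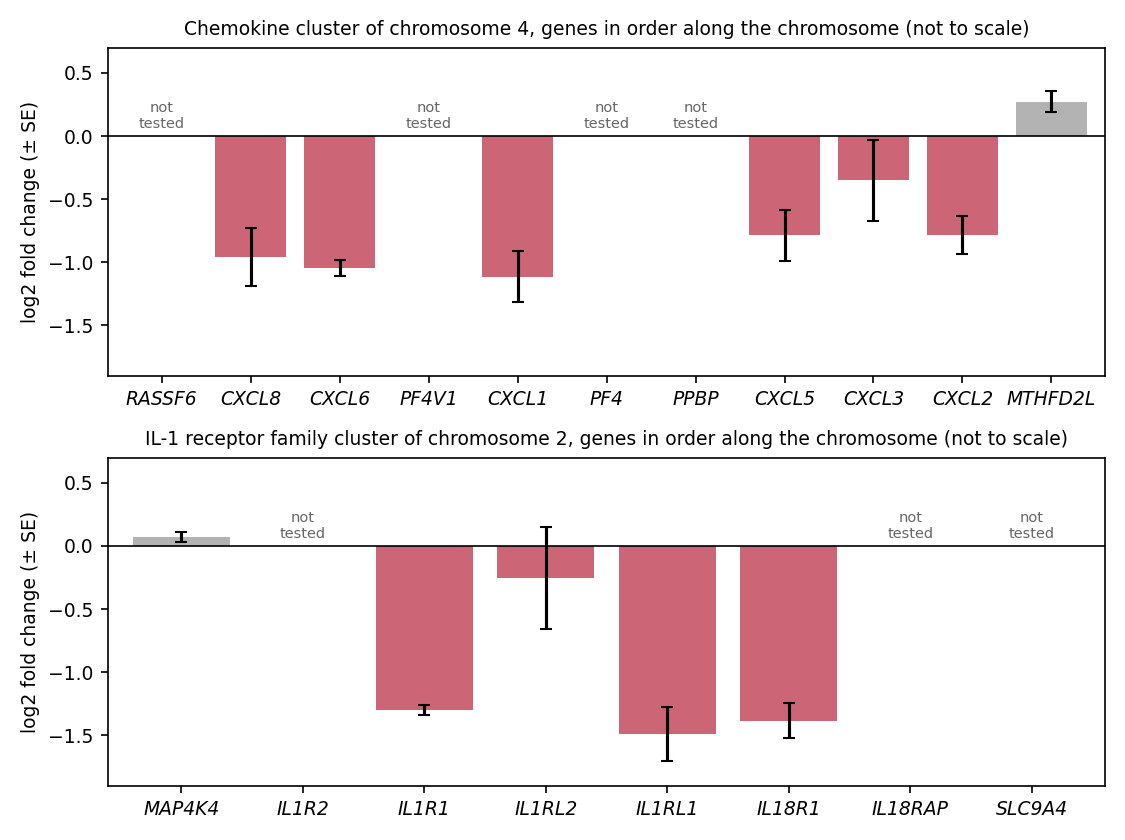
Log2 fold change of knockdown against control (y axis, bars with standard errors) for genes in their order along the chromosome, for the chemokine cluster of chromosome 4 (top) and the IL-1 receptor family cluster of chromosome 2 (bottom). Red bars are genes of the cluster, all below 0, and grey bars the nearest neighbours MTHFD2L and MAP4K4, at 0.27 and 0.07. CXCL3 and IL1RL2 did not pass the test.

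Of the 4 receptor chains of the gp130 family among the 43 genes, IL6ST, LIFR and OSMR fell in knockdown cells and IL6R did not pass the test. IL11RA, the chain specific to interleukin 11, is not among the 43, is named after its value was seen, and was DE and higher (log2 fold change 0.60, edgeR adjusted p = 0.013). IL6ST, which encodes the shared chain gp130 at chr5:55935095-55995022 on the minus strand, had 29923, 33288 and 29934 normalized counts in control and 19856, 20087 and 20365 in knockdown libraries, without overlap. Its log2 fold change of -0.63 ± 0.043 (SE, edgeR adjusted p = 1.1e-07) lay close to the fold change cutoff, under which it fell without control replicate 2 (-0.58) and with scaling by library size alone (-0.56). LIFR (chr5:38474668-38608354, minus strand), which binds LIF together with gp130, had 7651, 8761 and 7638 against 4271, 4214 and 4695, a log2 fold change of -0.87 ± 0.057 (SE, edgeR adjusted p = 6.9e-08). OSMR, the oncostatin M chain, whose gene is a neighbour of LIFR on chromosome 5, had 8940, 10170 and 9051 against 7233, 7261 and 7269 (log2 fold change -0.37 ± 0.047, SE, edgeR adjusted p = 2.4e-05). The groups of LIFR and OSMR did not overlap, and RICTOR, beside OSMR, had 0.0052 on the log2 scale (edgeR adjusted p = 0.94). IL6R, the chain specific to interleukin 6, had 124, 91.2 and 140 against 113, 145 and 107 with overlapping groups (edgeR adjusted p = 0.89).

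The fitted falls of LIFR, IL6ST and OSMR differed in size. Per kilobase, LIFR was 0.505, 0.508 and 0.498 times OSMR in control libraries and 0.348, 0.342 and 0.381 times in knockdown libraries. IL6ST was 3.94, 3.83 and 3.95 times LIFR in control and 4.69, 4.80 and 4.37 times in knockdown libraries, and 1.99, 1.95 and 1.97 against 1.63, 1.64 and 1.67 times OSMR. None of these ratios overlapped between the groups, and LIFR was lower by the most, IL6ST by less and OSMR by the least, with p = 0.10 from the exact permutation test for each.

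IL4R, the chain shared by the receptors of interleukins 4 and 13, had 256, 242 and 214 normalized counts in control and 198, 186 and 186 in knockdown libraries, a log2 fold change of -0.32 ± 0.097 (SE, edgeR adjusted p = 0.016). This call was lost without control replicate 1 (adjusted p = 0.074) and without knockdown replicate 2 (adjusted p = 0.059) in the same edgeR test. IL13RA1, its partner that binds interleukin 13, had 2875, 3094 and 3158 against 3787, 3721 and 3792, a log2 fold change of 0.31 ± 0.042 (SE, edgeR adjusted p = 4.4e-05). The ratio of IL13RA1 to IL4R per kilobase was 16.4 ± 2.25 in control and 25.1 ± 0.830 in knockdown libraries (SD, n = 3 each), and these groups did not overlap.

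**Figure D4:**
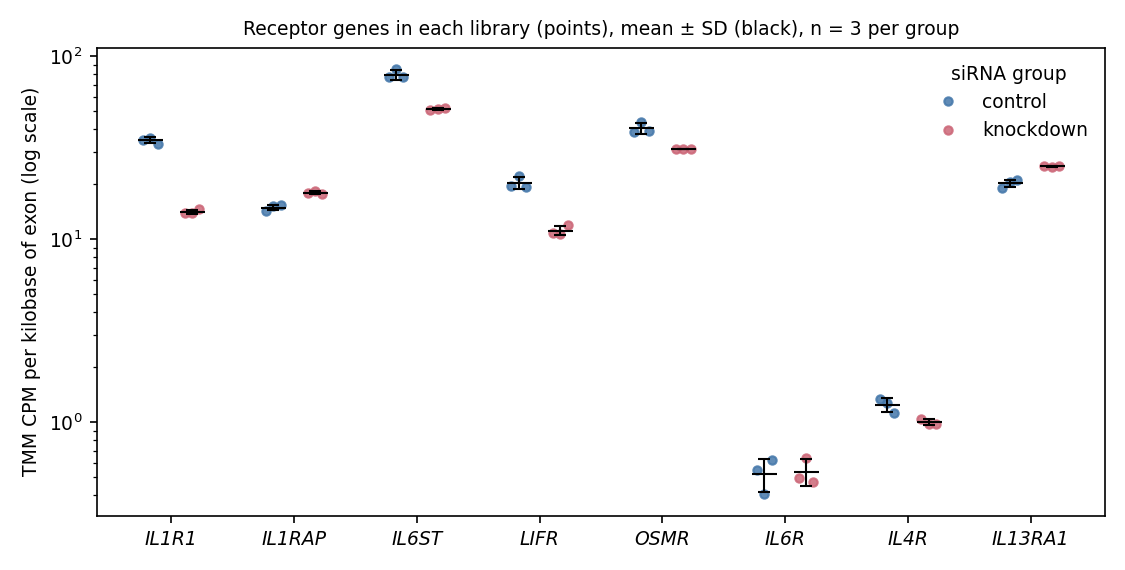
Levels of 8 receptor genes in TMM CPM per kilobase of exon on a log scale, with a point for each library and the mean ± SD in black. IL1R1 lies above IL1RAP in the control libraries and below it in the knockdown libraries, and IL6R is the only one of the 8 whose groups overlap.

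Both feedback inhibitors of NF-kB were lower in knockdown cells. TNFAIP3 (chr6:137867214-137883314, plus strand), which encodes the ubiquitin-editing enzyme A20, had 544, 563 and 623 normalized counts in control and 345, 367 and 394 in knockdown libraries, a log2 fold change of -0.65 ± 0.076 (SE, edgeR adjusted p = 1.2e-05). NFKBIA, which encodes the inhibitor that holds NF-kB in the cytoplasm, had 1568, 1372 and 1521 against 1164, 1182 and 1323, a log2 fold change of -0.29 ± 0.060 (SE, edgeR adjusted p = 0.0015). Neither gene overlapped between the groups. Both promoters hold the NF-kB consensus, with TNFAIP3 carrying 2 sites 2 bases apart (chr6:137867192-137867201 and chr6:137867204-137867213) and NFKBIA 1 (chr14:35404821-35404830). Each site matches the consensus only on the strand opposite to its gene, the minus strand for TNFAIP3 and the plus strand for NFKBIA. The first TNFAIP3 site and that of NFKBIA are shown along the strand of each gene, with the matching bases in capitals. Read on the opposite strand, the capitals of NFKBIA are the same letters as those of the ELR chemokine sites printed above.
TNFAIP3: acgtgactttGGAAAGTCCCgtggaaatcc
NFKBIA: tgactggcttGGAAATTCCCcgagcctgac
The genes of NF-kB itself did not pass the test. RELA had 2633, 2611 and 2597 normalized counts in control and 2798, 2834 and 2685 in knockdown libraries (edgeR adjusted p = 0.078), and NFKB1 1909 ± 73.6 and 2003 ± 62.9 (adjusted p = 0.21).

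Genes of the same pathways outside the 43 were described by lists. Of 37 genes of interleukin 1, TNF and NF-kB signalling, all tested, 11 rose and 7 fell, with a median log2 fold change of 0.032. These were 29.7% and 18.9% of the list, beside 23.3% and 25.0% of all genes. The share of DE genes, 10.8%, was near the 11.7% of all genes, so the count is no result about the list. The 4 DE genes were BCL3 (-0.69), a nuclear partner of NF-kB, IRAK2 (-0.66) and IRAK3 (-0.65), a kinase and a brake of the interleukin 1 receptor, and MAP3K8 (-0.63), which was chosen after its value was seen, with negative log2 fold changes in each. Of 22 other NF-kB target genes, 21 were matched and 14 tested, of which 1 rose and 7 fell (7.14% and 50%). TNFAIP6, which binds hyaluronan, fell from 73.5 ± 10.1 to 20.5 ± 4.90 normalized counts, PTX3, a soluble pattern receptor, from 464 ± 40.1 to 134 ± 14.1 and PLAU, the urokinase gene, from 405 ± 33.9 to 206 ± 8.54 (SD, n = 3 each), and these were the 3 DE genes of the list (21.4%). Of 44 other cytokine receptor genes, 23 were tested, 4 rose and 9 fell (17.4% and 39.1%), and 5 were DE (21.7%). Beside IL1RL1 and IL18R1, IL7R, the receptor chain of interleukin 7, was DE and rose from 596 ± 27.9 to 1290 ± 110 counts (SD, n = 3 each, log2 fold change 1.12, edgeR adjusted p = 2.8e-08). IL11RA (0.60) and TNFRSF1A (-0.61), named after their values were seen, completed the DE genes of this list.

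Among 28 JAK-STAT genes, 25 were tested, 7 rose (28%), 9 fell (36%) and 2 were DE (8%), with a median log2 fold change of 0.0048. Over all genes tested, 23.3% rose, 25.0% fell and 11.7% were DE, so the count of DE genes is no result about this list. STAT3 had 6658 ± 119 and 6679 ± 114 normalized counts in control and knockdown cells (SD, n = 3 each, edgeR adjusted p = 0.92). SOCS3, a feedback inhibitor that STAT3 raises, fell from 1628 ± 15.5 to 1142 ± 44.8 (log2 fold change -0.51 ± 0.044, SE, edgeR adjusted p = 8.0e-07). SOCS6, a related adaptor, was DE at 46.0% of control, and JAK3, a kinase known from lymphocytes, was DE at 2.34 times control with 62.7, 47.6 and 39.7 counts in knockdown libraries. Of 42 other cytokine ligands, 6 were tested and 2 were DE (33.3%, beside 11.7% of all genes). TNFSF10, the death ligand TRAIL, was DE and lower (log2 fold change -1.01), and CTF1, a gp130 cytokine, DE and higher (0.78). None of 26 other chemokine genes and only CCR10 and ACKR1 of 21 other chemokine receptor genes were tested, and neither receptor passed (adjusted p = 0.68 and 0.081 from edgeR). Of 9 genes for proteins that bind and destabilize or stabilize cytokine mRNA, 1 rose and 4 fell (11.1% and 44.4%). ZFP36L2, a protein that binds AU-rich elements, was the DE gene at 55.2% of control. The share of DE genes in this list, 11.1%, was near the 11.7% of all genes, so it is no result about the list.

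The siRNA and the 3′ UTRs of the genes were compared because a short match to the guide strand can lower an mRNA as a microRNA does. The guide strand is printed with bases 2 to 8, its seed, in capitals, as RNA with its 3′ overhang.
Guide of LINC01133a: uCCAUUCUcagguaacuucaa
A 7-base match to this seed was found in the longest annotated 3′ UTR (GENCODE v44) of 10 of the 29 tested genes, beside 18.6% of the 12507 tested genes with a 3′ UTR of at least 20 bases. Among the 11 DE genes 3 held it, IL6ST at 2 sites and IL1R1 and LIFR at 1 site each. The others were OSMR, NFKBIA, CXCL16, CCL2, CCL28, LIF and IL15. The sites of the DE receptor genes are shown with flanking bases, the match in capitals.
IL6ST, first site, chr5:55938970-55938976 (minus strand): ctacaggaatgAGAATGGaggatcattga
IL6ST, second site, chr5:55936453-55936459 (minus strand): cttaataacatAGAATGGagatggcaaat
IL1R1, chr2:102179301-102179307 (plus strand): gaattacaagtAGAATGGcagctggaatt
LIFR, chr5:38475206-38475212 (minus strand): aaattgctgttAGAATGGgaaatttggac
None of the ELR chemokines, CXCL12, CCL7 or TNFAIP3 held the match, so 8 of the 11 DE genes lacked it. These include CCL7, whose lower direction was favoured by the filter. Of all genes that were DE and lower, 29.3% held the match, more than the 18.6% of all tested genes. For matches followed by A, which both sites of IL6ST are, the shares were 14.3% and 6.26%, and the median log2 fold change of tested genes was -0.13 with such a match and -0.0057 without. The median log2 fold change was -0.31 for the tested genes of the group with the match and -0.35 for those without, and over all tested genes -0.08 with and 0.0011 without. Genes with the match have longer 3′ UTRs, with a median of 3336 bases against 1555 for all. The median was 1252 bases for the 29 tested genes of the group and 1969.5 for all genes that were DE and lower. The AU-rich word ATTTATTTA, a binding site for proteins that shorten the life of cytokine mRNA, was found in 6 of the 29 tested genes (CXCL1, CXCL2, CXCL8, IL11, CCL28 and OSMR), beside 8.36% of all tested genes, and in CXCL1, CXCL2 and CXCL8 among the DE genes. The part of either sequence feature in the changes was not tested.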

How the data were processed

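Poly-A RNA of 12Z cells was sequenced by the study as paired reads, in 3 control and 3 knockdown libraries. Per the labels and the methods, the authors aligned the reads with STAR 2.7.6a to GRCh38.p13 with GENCODE v36, kept reads mapping to 1 place and deposited raw counts per gene, for both strands and without regard to strand. The column opposite to read 1 held 93.9% to 94.1% of stranded counts and was used. Reads outside genes (4.38% to 5.22% of uniquely mapped reads) and on several genes (3.88% to 4.23%) were left out of library sizes and tests. Genes were kept by filterByExpr (minimum count 10), scaled by TMM (factors 0.968 to 1.03) and compared over all 15155 genes in edgeR 4.0.16 under R 4.3.3 (glmQLFit, glmQLFTest), with Benjamini-Hochberg adjustment and the fold change cutoff of 1.5 of the study. The comparison was also run on counts simulated with a common dispersion for all genes, which cannot judge it for genes with wider spread. Levels per kilobase used merged exons of GENCODE v44, on the same GRCh38 assembly, and IDs were matched to symbols for 60419 of 60660 genes. Promoters came from RefSeq. Exact tests used scipy 1.17.1.

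The 43 genes and the lists were chosen with earlier results of these data known. Genes with values in every library were DE genes, those with an absolute log2 fold change over 0.4, the most abundant gene of each role and partners of DE genes. LINC01133, RELA, NFKB1, STAT3, SOCS3 and up to 3 DE genes per list with a mean count of at least 20 were added. The AP-1 and STAT motifs, the AU-rich word and the receptor ratios were added after the data were seen. DESeq2 1.42.0, which the study had used in another version, was an alternative, beside other scaling, filters, the unstranded column, glmTreat, a replicate block and leaving out each library. Where an SD is given, it comes from 3 libraries a group. An SE is the absolute log2 fold change divided by the square root of the edgeR F statistic. Its variance estimate shares information across all tested genes.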

Additional observations from a re-analysis of the deposited data

How the results depend on the processing

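The count of DE genes among the 43 was 10 to 11 under DESeq2, other size factors, library size alone, other filters, the unstranded column and leaving out single libraries, where all DE genes of the group remained lower, and genes that fell by adjusted p were 14 to 17. Only glmTreat, the test against a fold change of 1.5, moved these counts past 1.5 times, by its own stricter construction. It called 578 genes in all against 1778, 4 of the 43 genes (0 higher, 4 lower) against 11, with 0 that rose and 4 that fell at an adjusted p under 0.05. It ended the calls of CXCL1, CXCL2, CXCL5, CXCL8, CCL7, IL6ST and TNFAIP3. Of 404 fold changes of single genes under the alternatives, 386 kept direction and call. The 8 reversals were of genes that passed in no fit: IL1A had -0.007 with the unstranded column, and leaving out single libraries gave -0.23 to 0.57 for IL1A, -0.14 to 0.024 for IL15 and -0.12 to 0.16 for IL6R. The cause was not tested. At an adjusted p under 0.05 alone, CXCL16 (0.027) and LIF (0.016) passed without control replicate 2, CCL2 (0.049) without control replicate 3 and CCL28 (0.045) with library size alone, and all 4 failed with all libraries under TMM. Scaling by library size alone moved the median log2 fold change of all genes to 0.065, and the share of DE genes that were higher from 45.2% to 55.9%, and with it IL6ST fell under the cutoff (-0.56).

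No pairing of libraries by replicate number was visible. Deviations of same-numbered libraries from their group means correlated at -0.015, 0.0049 and 0.057, and not every library correlated best with its own number. The study does not state whether same-numbered libraries were handled together, and these correlations cannot decide it. With the number as a replicate block, 1747 genes in all and 11 of the 43 were DE. With 3 libraries per group and under 20 counts per library, differences in CXCL3, CCL7 and IL1A are poorly resolved at this depth. The unstranded column held 0.762 times the counts of the stranded column for CXCL5, 0.857 times for IL6ST and 1.24 times for IL1A.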
